A study of Mus musculus with 8 samples.

Results

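The cells described here are the granule lineage cells in S phase of 2 single-cell libraries from mouse medulloblastoma, 3013 of the 16933 cells that passed the quality limits. The quality limits were a minimum of 500 detected genes and a maximum of 10% of the unique molecular identifiers (UMIs, counts of captured RNA molecules) coming from mitochondrial genes. It was taken as an S-phase cell when at least 5 of 10 replication genes (Mcm2, Mcm3, Mcm5, Mcm6, Gins2, Cdc6, Hells, Ung, Cdt1 and Ccne2) had a UMI and at most 5 of 10 G2/M genes (Top2a, Ube2c, Cdk1, Ccnb1, Hmmr, Tpx2, Plk1, Aurkb, Nusap1 and Prc1) did, with at least 1 UMI over the granule lineage genes Atoh1, Zic1, Barhl1 and Neurod1. The primary tumour library gave 1540 such cells of 9094 and the relapsed tumour library 1473 of 7839. The members were thus chosen by detection of these 24 genes, whose levels are given as a description of the cells and not as a finding.

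Both libraries came from medulloblastoma cells of mice that are deficient in Patched 1, with no other allele, agent or age in the labels. The first was a primary tumour and the other a relapsed tumour labelled 3 weeks; tumours were dissociated with papain, sorted by flow cytometry, suspended in NB-B27 medium and partitioned on a Chromium instrument. The labels do not say how many mice gave each library, which promoter drives any recombination, what treatment came before relapse, or the gate of the sort, which can set shares of cells. The description of the relapsed library names a primary tumour, and its title and source label were followed.

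Patched 1 is a receptor that, without its ligand, keeps Hedgehog signalling silent in granule neuron precursors, the cells of the young cerebellum from which this kind of tumour arises. A cell in late G1 loads the MCM helicase onto origins with the help of ORC, Cdc6 and Cdt1, and E2F transcription factors, once freed from the retinoblastoma proteins, switch on the genes of this step. In S phase the loaded helicase joins Cdc45 and the GINS complex, polymerases copy the DNA behind it, and nucleotide enzymes and histones are made in step.

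The promoters of the replication genes that define these cells often hold a sequence to which E2F proteins are known to bind, so the stretch of 250 bases before the start of 5 of them is shown. They are RefSeq promoters on GRCm38.p6, written 5′ to 3′ along the gene's own strand, with capitals for each match to TTTGGCGC, TTTGCCGC, TTTCGCGC or TTTCCCGC on either strand. Mcm5 lies at chr8:75109259-75109508 (plus strand), Mcm6 at chr1:128359706-128359955 (minus), Cdc6 at chr11:98907901-98908150 (plus), Hells at chr19:38930740-38930989 (plus) and Ung at chr5:114130185-114130434 (plus).
Mcm5: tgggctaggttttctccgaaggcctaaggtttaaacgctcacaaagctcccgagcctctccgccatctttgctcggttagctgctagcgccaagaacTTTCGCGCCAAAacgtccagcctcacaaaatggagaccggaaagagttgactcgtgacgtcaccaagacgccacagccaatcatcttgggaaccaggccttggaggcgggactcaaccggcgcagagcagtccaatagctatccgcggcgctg
Mcm6: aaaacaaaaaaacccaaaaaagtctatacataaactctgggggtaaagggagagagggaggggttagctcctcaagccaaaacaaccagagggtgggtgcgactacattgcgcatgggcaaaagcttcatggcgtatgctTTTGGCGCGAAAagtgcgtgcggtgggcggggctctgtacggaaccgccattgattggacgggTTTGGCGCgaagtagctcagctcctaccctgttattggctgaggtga
Cdc6: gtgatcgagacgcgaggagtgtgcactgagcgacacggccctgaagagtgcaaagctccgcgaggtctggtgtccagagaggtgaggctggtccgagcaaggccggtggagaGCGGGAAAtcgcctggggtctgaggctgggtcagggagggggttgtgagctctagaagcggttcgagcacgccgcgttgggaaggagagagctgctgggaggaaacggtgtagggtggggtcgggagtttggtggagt
Hells: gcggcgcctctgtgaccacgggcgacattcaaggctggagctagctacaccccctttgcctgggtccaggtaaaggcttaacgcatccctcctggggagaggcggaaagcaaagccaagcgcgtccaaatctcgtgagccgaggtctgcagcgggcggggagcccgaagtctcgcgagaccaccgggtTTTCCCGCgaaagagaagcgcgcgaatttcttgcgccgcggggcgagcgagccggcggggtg
Ung: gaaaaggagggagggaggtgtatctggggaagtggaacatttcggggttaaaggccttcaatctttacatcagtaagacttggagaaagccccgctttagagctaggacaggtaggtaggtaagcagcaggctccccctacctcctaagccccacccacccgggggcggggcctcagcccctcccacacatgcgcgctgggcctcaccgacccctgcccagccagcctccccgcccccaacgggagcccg
Mcm5 holds 2 matches on opposite strands that overlap in 1 run of capitals. Mcm6 holds 3 matches, of which a pair overlap in the same way, while Cdc6 and Hells hold 1 each and Ung none. In the full RefSeq windows, which reach 50 bases past the start, 6 of the 8 replication genes with a window held a match (75%), against 1 of 8 G2/M genes of the rule (12.5%), 0 of the 4 granule lineage genes and 704 of 27025 genes in all (2.605%). Mcm3 and Cdt1 had theirs past the start, Mcm2 had none, and Gins2 and Ccne2 had no window. Among the gene lists below, 8 of 23 genes of the replication fork, 7 of 18 of chromatin assembly, 7 of 18 of the E2F list and 5 of 16 of licensing held one, against 0 of 17 of nucleotide supply, 0 of 8 histone genes and 0 of 28 of G2 and mitosis. Of the 15 genes outside the rule with the largest S-phase to resting ratio, named below, 13 had a window and 2 of these held a match (15.4%). A match describes letters in this window and is not evidence of a bound site.

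The S-phase cells carried 11310936 UMIs in the primary library and 12742007 in the relapsed one, with a median of 7084 and 7939 UMIs and 2566.5 and 2662 genes per cell. The relapsed library was deeper throughout: the lowest UMI number of any of its barcodes was 3317, against 2216 in the primary library. The libraries shared 93 barcodes, which included 16 primary and 24 relapsed S-phase cells. With 1 library in each group there is no test between them, cells are not replicates, and all intervals are 95% intervals that cover counting error only (exact binomial for shares, exact Poisson for UMI sums).

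Of cells with a granule lineage UMI, 17.6% were in S phase in the primary library (1540 of 8748, 16.8 to 18.4) and 19.1% in the relapsed library (1473 of 7725, 18.2 to 20.0). A G2/M class, with at least 6 G2/M genes detected, held 22.0% and 33.3%. A resting class, with at most 1 gene of each list, held 33.5% and 23.5%, and the remaining intermediate cells 26.9% and 24.2%. The number of genes detected depends on depth, so all cells were also thinned to 3000 UMIs, which left out 1176 shallower primary cells and 0 relapsed cells. The order of the S-phase shares then turned, to 9.19% (8.54 to 9.87) in the primary library and 6.87% (6.31 to 7.47) in the relapsed one. At 5000 UMIs, where 4016 and 1670 cells were left out, the shares were 20.0% and 16.6%. No order of the libraries in their share of S-phase cells can therefore be read from these data. As a part of S-phase and G2/M cells together, S phase took 44.5% (42.8 to 46.2) in the primary library and 36.4% (34.9 to 37.9) in the relapsed one, and 40.5% and 32.4% at 3000 UMIs, the same order at both depths.

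**Figure D1:**
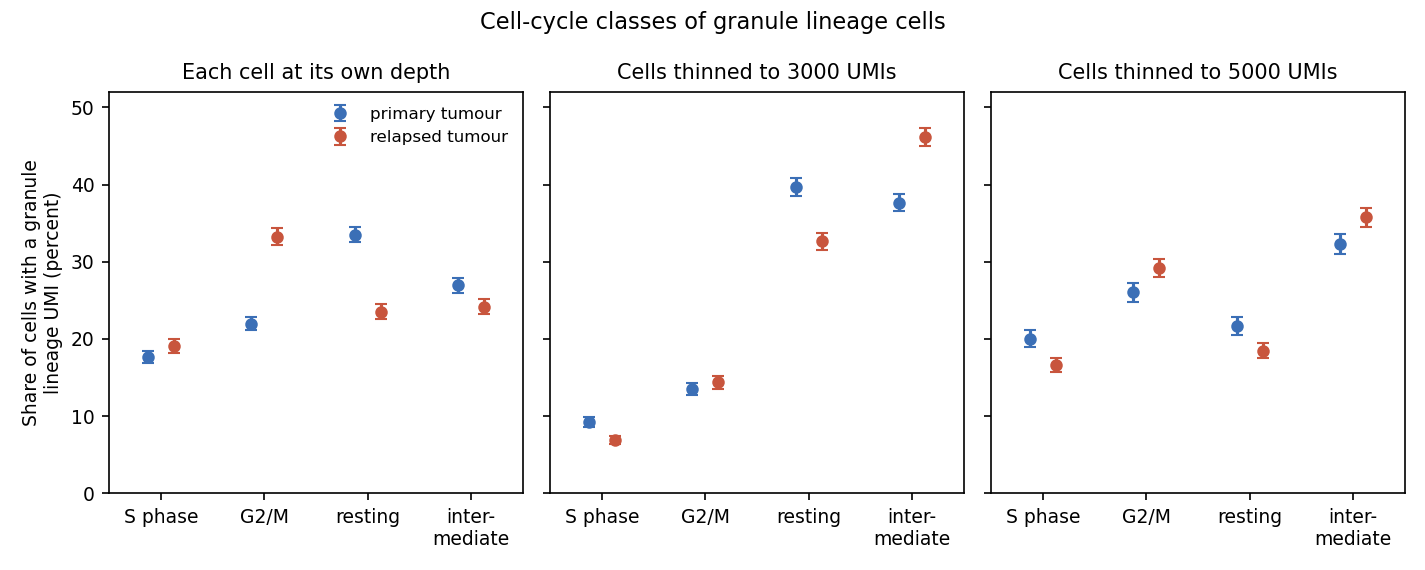
Share of cells with a granule lineage UMI (percent, y axis) in the S-phase, G2/M, resting and intermediate classes of the primary (blue) and relapsed (red) library, with each cell at its own depth and after thinning to 3000 and 5000 UMIs. Points are 1 library each and bars are exact binomial intervals; the S-phase share is 17.6% and 19.1% at own depth and 9.19% and 6.87% at 3000 UMIs.

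The limit of 5 replication genes runs through a continuous range. With at most 5 G2/M genes, 466 primary and 473 relapsed granule cells had exactly 4 replication genes and fell just outside, while 415 and 393 had exactly 5 and fell just inside. Their median depths were 5811 and 6552 UMIs outside the limit and 5994 and 6876 inside. On the other side, 159 and 170 cells with at least 5 replication genes had exactly 5 G2/M genes, and 132 and 173 had 6 and were left out. A further 120 and 185 had 7, 125 and 222 had 8, 114 and 245 had 9, and 116 and 296 had all 10. The cells left out belong to the G2/M class. Part of that class thus also met the limit of 5 replication genes, with more such cells in the relapsed library. The granule limit mattered little: 32 primary and 11 relapsed S-phase cells rested on a single granule UMI, and 9 and 7 cells met both cell cycle limits with none.

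The markers of the label were present. Mcm5, a helicase subunit, had a UMI in 81.4% of primary and 80.3% of relapsed S-phase cells, and Ung, which removes uracil from new DNA, in 80.7% and 84.5%. Gins2, a GINS subunit, had one in 69.2% and 52.6%, and the loading factor Cdc6 in 34.7% and 31.1%. Free RNA in droplets gives UMIs in cells that do not make a gene, so the same shares were read in microglia and macrophages, cells with at least 4 of their own markers (273 primary cells at a median of 6437 UMIs and 31 relapsed cells at 11208). These were 21.6% and 9.68% for Mcm5, 16.1% and 12.9% for Ung, 17.9% and 22.6% for Gins2, and 4.03% and 3.23% for Cdc6. All of these were below the S-phase shares, although 18 of the primary and 1 of the relapsed microglia and macrophages themselves met both cell cycle limits.

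Levels below are UMIs of a gene per 1000000 UMIs summed over the cells of a class (CPM). The classes were cut on the genes of the rule, so differences of these genes between classes are a description. The G2/M class also holds cells with at least 5 replication genes. Ung stood at 246 CPM (237 to 255) in primary and 235 (227 to 244) in relapsed S-phase cells, against 8.71 and 6.88 in resting cells and 31.6 and 33.6 in the G2/M class. Cdc6 stood at 62.8 and 44.7 CPM, against 1.30 and 0.581 in resting cells and 16.0 and 12.02 in the G2/M class. Other replication genes of the rule kept more of their level into the G2/M class. Mcm6 went from 329 and 323 CPM in S phase to 138 and 169, and Mcm2 from 240 and 232 to 88.2 and 114. Gins2 went from 157 and 87.8 to 69.0 and 43.6, and Hells from 146 and 109 to 64.2 and 45.7.

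Between the libraries, the 10 replication genes of the rule had log2 ratios of relapsed over primary from −0.84 to −0.02, all below 2-fold. Gins2 (chromosome 8, 120578633–120589304 on mm10) had the largest, from 157 CPM (150 to 164) to 87.8 (82.7 to 93.1), a log2 ratio of −0.84 (−0.95 to −0.73). Cdc6 was at −0.49, Ccne2, the cyclin E that drives entry into S phase, at −0.43, the chromatin remodeller Hells at −0.43 and Mcm5 at −0.42. Mcm2, Mcm6 and Ung differed by −0.05, −0.02 and −0.06, Mcm3 by −0.18 and Cdt1 by −0.16. Several of these ratios, larger ones among them, depended on the cells taken. After thinning to 3000 UMIs the ratio was 0.22 for Mcm2, 0.08 for Mcm3, 0.14 for Ung, 0.10 for Cdt1 and −0.02 for Ccne2. Among cells with at most 1 G2/M gene it was 0.06 for Mcm6, 0.13 for Ung, 0.04 for Cdt1 and −0.02 for Cdc6. Gins2, Hells and Mcm5 were below 0 under both, with Gins2 at −0.55 and −0.81. The other GINS subunits, which chose no cells, had values in the same range: Gins1 at −0.55, Gins3 at −0.64 and Gins4 at −0.62, none past 2-fold.

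Set against resting cells of the same library, S-phase cells were higher in genes of every step of replication, also outside the rule. Most of these gene lists lay near the G2/M class, as given below. Of 7942 genes outside the rule with a mean of at least 10 CPM, 320 were at least 2-fold higher in S-phase cells in both libraries (4.03%) and 361 at least 2-fold lower in both (4.55%). Since the classes were cut on genes of the cell cycle, these values describe the classes and test nothing. The 15 genes with the largest ratio were Mcm10, Mybl2, Dscc1, Rrm2, Clspn, Exo1, Tcf19, Lrr1, Tk1, Uhrf1, Cdc45, Chek1, Asf1b, Fam111a and Chaf1b. Rrm2, the regulated subunit of ribonucleotide reductase (chromosome 12, 24708241–24714146 on mm10), stood at 300.5 and 314 CPM in S phase and 16.0 and 10.9 in resting cells, log2 ratios of 4.23 and 4.84. Mcm10, which joins the helicase to the polymerase, stood at 25.9 and 32.6 CPM against 1.22 and 1.55. Mybl2, the B-Myb factor of cell cycle genes, stood at 38.0 and 48.2 CPM against 1.83 and 2.03.

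The 15 genes differed in how far they lasted into the G2/M class. Chaf1b, a subunit of the CAF-1 histone chaperone, was 2-fold higher in S phase than in the G2/M class of both libraries (log2 1.18 and 1.17). Uhrf1, which guides methylation of new DNA, was higher by 0.65 and 0.60 and Chek1, the kinase of the replication checkpoint, by 0.78 and 0.77. Tk1, thymidine kinase, and Asf1b, a histone chaperone, were lower in S phase than in the G2/M class, by log2 −0.65 and −0.29 for Tk1 and −0.73 and −0.53 for Asf1b. Rrm2 was near equal in both classes, at −0.06 and 0.27.

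**Figure D2:**
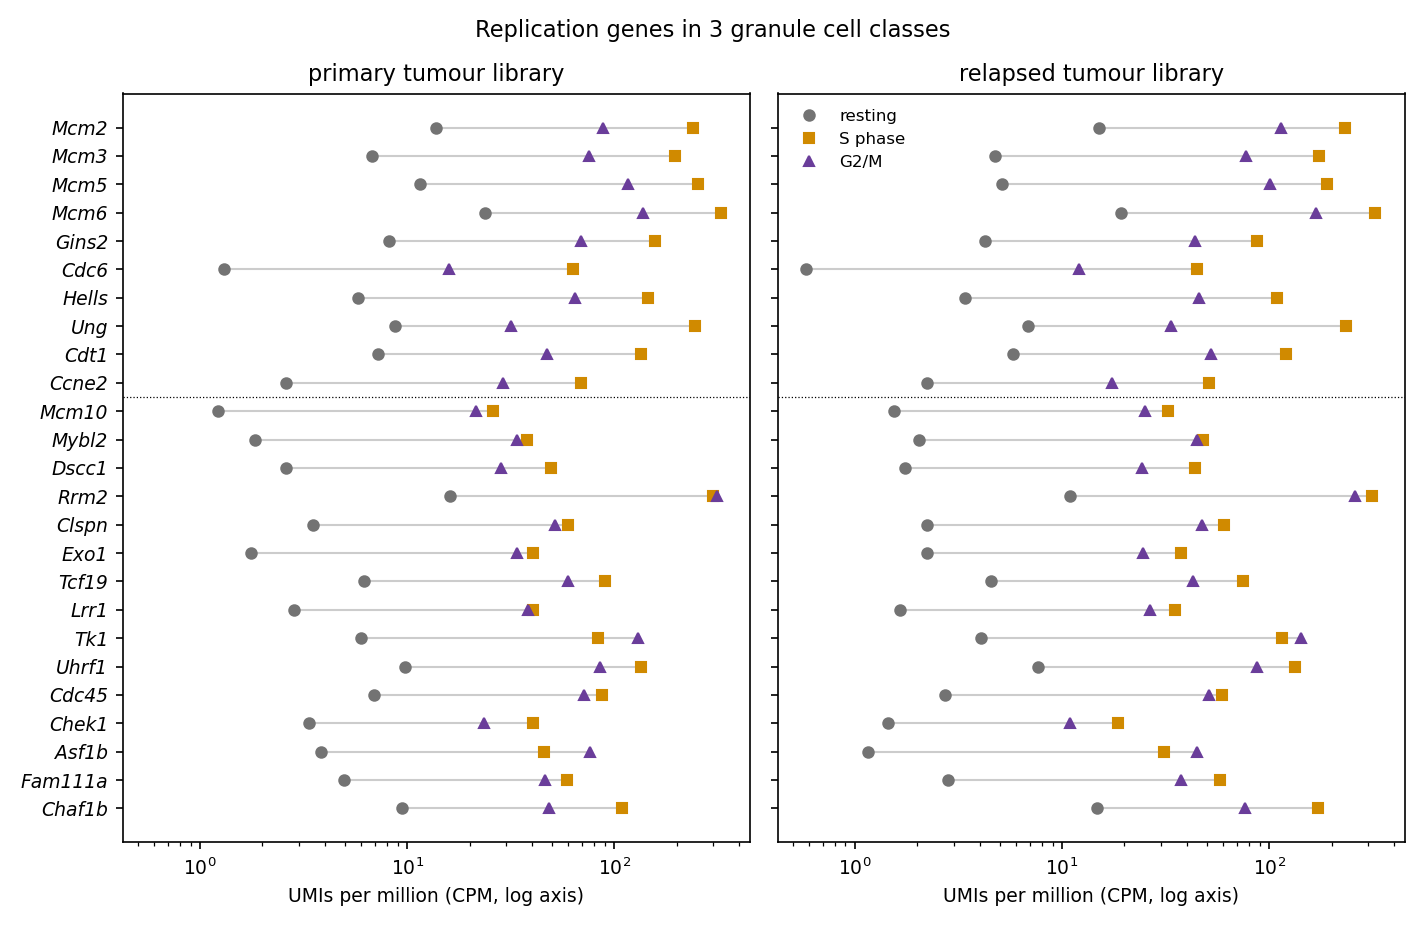
Level (CPM, log axis) of the 10 replication genes of the rule (above the dotted line) and the 15 genes outside it with the largest S-phase to resting ratio, in resting (grey circles), S-phase (orange squares) and G2/M (purple triangles) granule cells of each library. Every gene is lowest in resting cells, and Ung drops from 246 CPM in S phase to 31.6 in the G2/M class of the primary library while Rrm2 goes from 300.5 to 314.

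Licensing and origin firing genes outside the rule were at least 2-fold higher in S phase than in resting cells in both libraries for 15 of 18 members, with a median log2 ratio of 2.00 in the primary library and 1.92 in the relapsed one, against −0.03 and −0.01 over all genes outside the rule. Gmnn, geminin, which blocks a second loading of the helicase, was among them at 139 and 140 CPM against 12.4 and 8.43, and Mcm7 at 345 and 306 against 78.4 and 77.3. The 3 members below 2-fold were Orc3, Orc4 and Orc5, subunits of the origin recognition complex, with log2 ratios from 0.18 to 0.84. Genes of the polymerases and the fork were higher for 23 of 26 members (medians 2.36 and 2.33), among them Pcna, the sliding clamp, at 428 and 358 CPM against 64.0 and 44.4. Chtf8, a subunit of a clamp loader, was not past 2-fold, at 0.24 and 0.23.

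Nucleotide supply was higher for 14 of 17 members (medians 1.68 and 1.88). Dut, which removes dUTP, stood at 669 and 611 CPM against 150.5 and 134 in resting cells, and Tyms, thymidylate synthase, at 219 and 161 against 23.1 and 13.8. Nme1 and Impdh2, enzymes of nucleotide metabolism, were at log2 ratios from 0.37 to 0.87 and did not pass. Chromatin assembly was higher for 15 of 19 members (1.38 and 1.78), and 5 of 8 replication-dependent histone genes were higher and 1, Hist1h2bc, lower. Most transcripts of these histones lack a long poly(A) tail, and the copies are nearly identical, so their counts are uncertain in poly(A)-primed libraries.

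Checkpoint and homologous repair genes were higher for 16 of 19 members (medians 2.42 and 2.18). Of the E2F factors, pocket proteins and G1/S cyclins, 9 of 19 were higher. They included Ccne1, cyclin E1, at 37.5 and 31.1 CPM against 2.83 and 2.81, and E2f2, at 22.3 and 20.6 against 3.97 and 2.03. Ccnd2, the D-type cyclin, was not, at 1758 and 1764 CPM against 1394 and 1139 in resting cells. None of the 6 CDK inhibitors was past 2-fold in both libraries. G2 and mitosis genes outside the rule were higher than in resting cells for 17 of 23 members, but their median was below the G2/M class by log2 −2.45 and −2.22. Median log2 ratios of S-phase over G2/M cells were 0.27 and 0.21 for licensing, 0.29 and 0.35 for the fork and 0.22 and 0.16 for nucleotide supply. They were 0.04 and 0.02 for chromatin assembly, 0.09 and 0.09 for checkpoint and repair, and −1.60 and −1.23 for histones. Over resting cells, the histone medians were 1.15 and 1.64 and those of G2 and mitosis 1.45 and 1.56. Most of these lists thus set S-phase cells apart from resting cells more than from the G2/M class. The exceptions were the histones in the primary library and G2 and mitosis in both.

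Resting and S-phase cells also differed in lineage factors. Atoh1 had a UMI in 28.2% and 41.1% of resting and 63.7% and 76.6% of S-phase cells, and Neurod1 in 61.7% and 69.5% against 44.6% and 50.5%. Resting cells were shallower. After thinning to 3000 UMIs, Atoh1 was in 26.8% and 37.6% of resting and 38.2% and 49.5% of S-phase cells. Neurod1 was then in 51.4% and 55.2% against 27.0% and 29.4%. The part of this difference in the ratios to resting cells was not tested. Among Hedgehog pathway genes, the median log2 ratio over the G2/M class was −0.02 and 0.09, and 4 of 11 were higher in S-phase than in resting cells. They were Gli1, the pathway's activator and read-out, at 43.0 and 34.9 CPM against 15.3 and 7.845 in resting cells, Gli2 at 33.0 and 18.2 against 9.47 and 5.13, Ccnd1 and the co-receptor Gas1. Ptch1, the receptor made deficient in these mice, stood at 158 and 160.5 CPM against 97.3 and 90.0, and 3' counts do not show whether a deleted part is missing. Granule neuron differentiation went the other way, with 0 of 15 members higher and 9 lower (medians −1.42 and −1.16). Cntn2, an adhesion molecule of young granule neurons, stood at 38.5 and 25.6 CPM against 231 and 158 in resting cells, and Tubb3, the neuronal tubulin, at 638 and 601 against 2130 and 1324. Of the lineage factors outside the rule, 0 of 13 were higher and 3 lower. These were Nhlh1, Nhlh2 and Neurod2, of which Nhlh1, a factor of newborn neurons, stood at 45.3 and 37.0 CPM against 201 and 123.

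Among the genes with the lowest ratio were Rgs5, Mgp, Igfbp7, Lyz2, Ctss and Aqp4, genes of pericytes, vessels, macrophages and astrocytes. The summed level of 7 pituitary hormone cell markers in resting cells was 5.27 CPM in the primary library and 20682 in the relapsed one, and that of 10 microglia and macrophage markers 1122 and 177. In S-phase cells the same sums were 3.71 and 4244, and 244 and 3.37. Their part in these ratios was not tested.

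**Figure D3:**
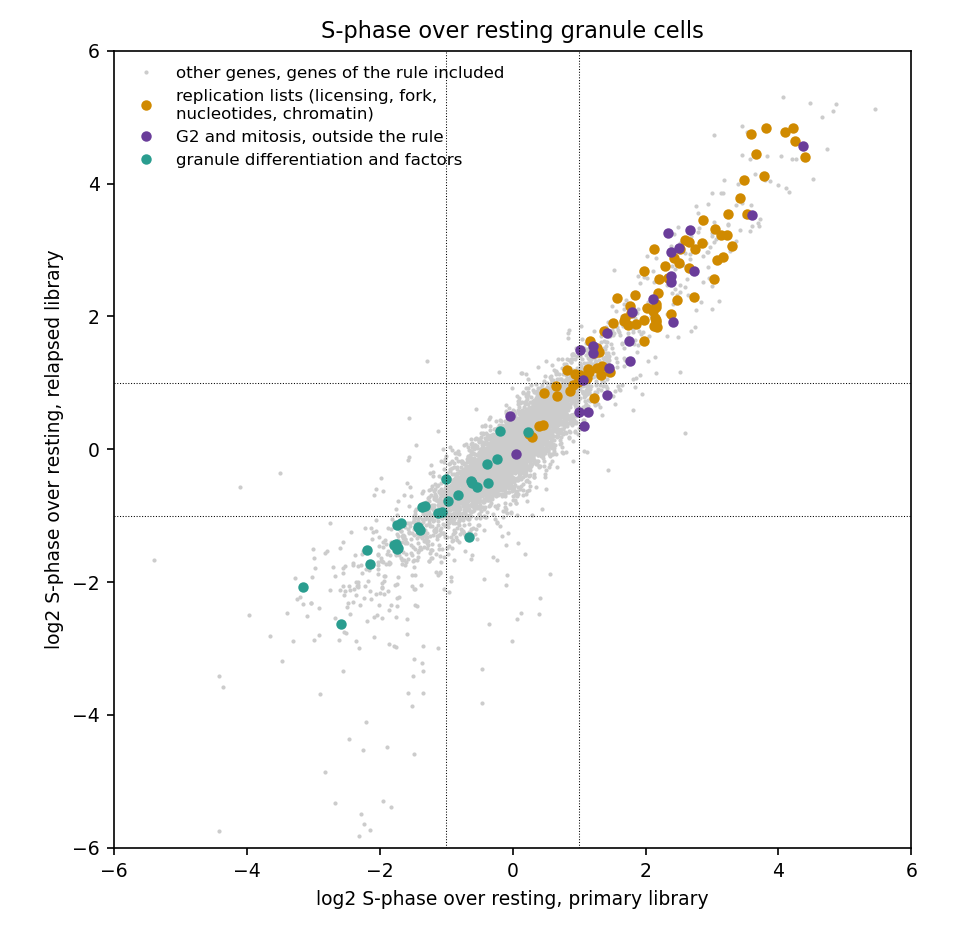
Log2 ratio of S-phase over resting granule cells in the primary (x axis) and relapsed (y axis) library, 1 point per gene (8111 genes drawn, 9 of them outside the axes), with dotted lines at 2-fold. Orange points are replication genes, purple points G2 and mitosis genes and green points differentiation genes and lineage factors, all outside the rule; orange points reach 4.41 and 4.40 (Mcm10) and the lowest green points include Cntn2 at −2.58 and −2.63.

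Within the S-phase cells, the number of G2/M genes detected was used as a rough order. Whether it follows progress through the phase was not tested. Cells with 0 or 1 of them numbered 681 in the primary library and 672 in the relapsed one (44.2% and 45.6% of S-phase cells), those with 2 or 3 numbered 507 and 466, and those with 4 or 5 numbered 352 and 335. Median depth went up along the same order, from 6550 to 8153 UMIs and from 7061.5 to 9470. Levels are scaled to the UMIs of a bin, but the bins were cut on detection and the part of depth in this order was not tested.

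Mcm5 and Ung stayed flat or dropped along this order, while genes of nucleotide supply and a histone gene went up. Mcm5 stood at 254, 257 and 252 CPM in the primary bins and at 196, 205 and 163 in the relapsed bins. Ung stood at 241, 266 and 228 and at 263, 242 and 186. Rrm2 went from 165 through 312 to 494 CPM in the primary and from 196 through 362 to 424 in the relapsed library. Gmnn went from 103 through 149 to 179.5 and from 117 through 155 to 155. Both libraries had the highest Rrm2 level in the last bin, about where Ung was lowest. Tk1 went from 44.9 through 80.9 to 146 and from 68.3 through 130 to 167. The histone gene Hist1h2ap had the steepest course of those shown, from 12.6 through 38.9 to 156 CPM and from 23.0 through 133 to 406. Ccna2, cyclin A, which acts from S phase to mitosis, went from 31.2 through 87.7 to 190 and from 42.2 through 108 to 179.

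**Figure D4:**
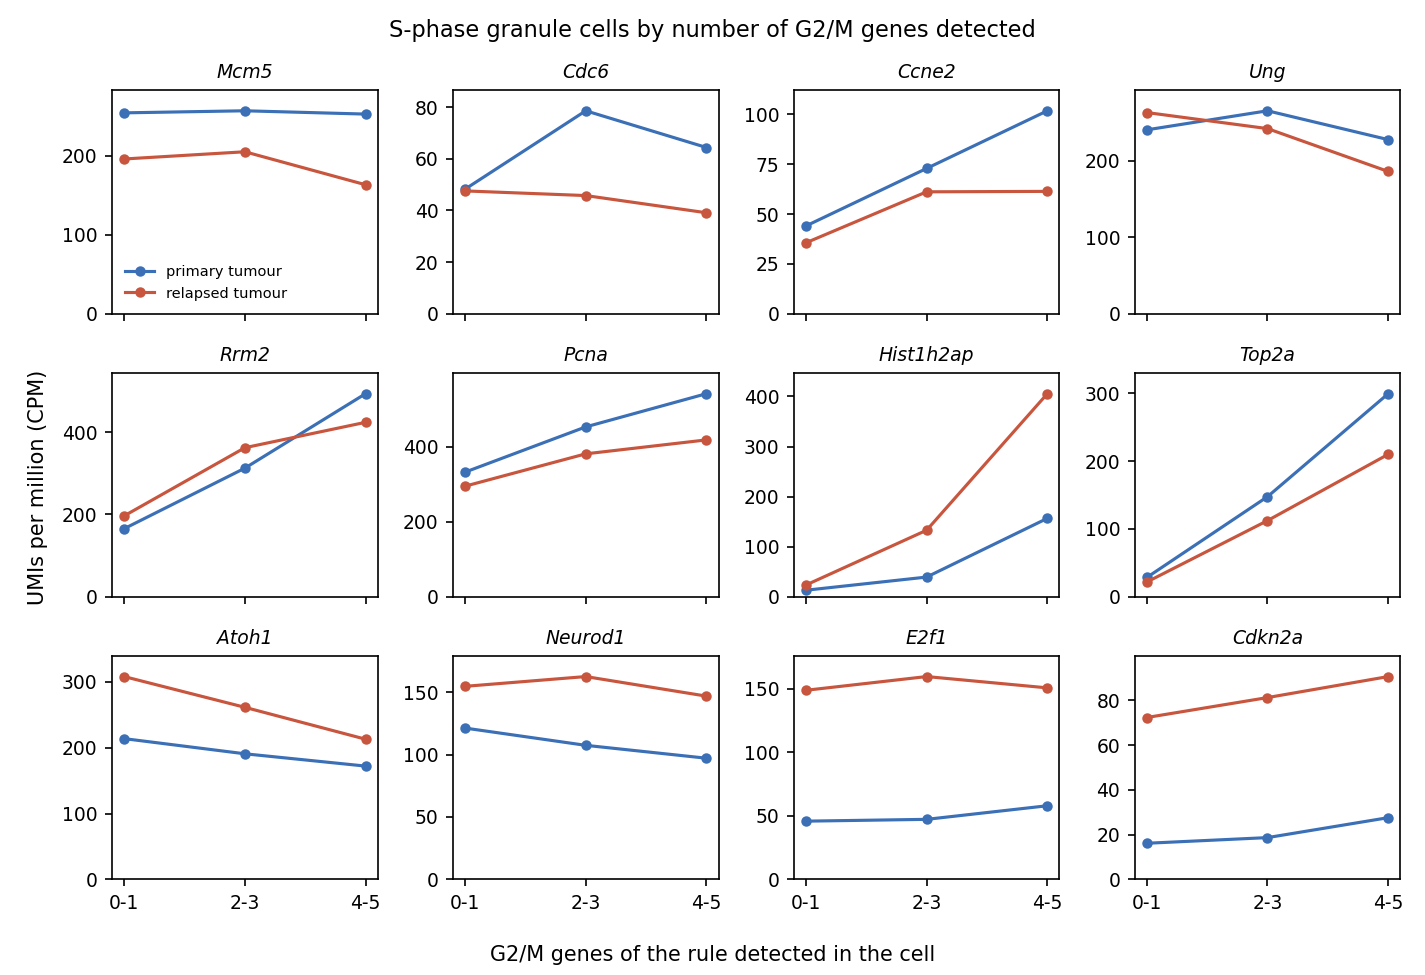
Level (CPM) of 12 genes in S-phase granule cells split by how many of the 10 G2/M genes of the rule were detected (x axis: 0 to 1, 2 to 3 and 4 to 5), for the primary (blue) and relapsed (red) library; each point is a sum over the cells of 1 bin. Rrm2, Pcna and Hist1h2ap go up along the bins, Mcm5 and Ung do not, and E2f1 and Cdkn2a are higher in the relapsed library in all 3 bins. Top2a is a G2/M gene of the rule and goes up by the way the bins were cut.

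S-phase cells carried RNA of both early and late granule lineage factors. Atoh1, the factor of dividing precursors, stood at 195 CPM (187 to 203) in primary and 266 (258 to 276) in relapsed S-phase cells, above the 117 and 170 of resting cells. Neurod1, a factor of differentiating granule neurons, stood at 110 and 155 CPM, below the 556.5 and 654 of resting cells. Barhl1 stood at 467 and 652 CPM and Zic1 at 449 and 403. The log2 ratios between the libraries were 0.45 for Atoh1, 0.49 for Neurod1, 0.48 for Barhl1 and −0.16 for Zic1, all under 2-fold.

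Atoh1 had a UMI in 63.7% of primary and 76.6% of relapsed S-phase cells (38.2% and 49.5% after thinning to 3000 UMIs), against 18.7% and 9.68% of microglia and macrophages. Neurod1 had one in 44.6% and 50.5% (27.0% and 29.4% thinned), against 23.4% and 22.6%. Both were detected together in 412 and 554 S-phase cells, Atoh1 alone in 569 and 574, Neurod1 alone in 275 and 190, and neither in 284 and 155. The share with Neurod1 alone was 17.9% and 12.9%, and 17.8% and 17.3% after thinning, and the share with neither was 18.4% and 10.5%, and 44.0% and 33.1% after thinning. The part of free RNA in these classes was not tested.

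Cells with Neurod1 alone and cells with Atoh1 alone had closely similar levels of most genes. Of 7747 genes, 24 were at least 2-fold higher in the Neurod1 cells in both libraries (0.31%, Neurod1 itself among them by construction) and 3 at least 2-fold lower (0.0387%), and the latter were Lyz2, Acot1 and, likewise, Atoh1. Neurod2, a later factor of the same family, stood at 11.6 and 35.7 CPM in the Neurod1 cells against 2.84 and 3.95 in the Atoh1 cells. Stmn2, a microtubule protein of growing neurites, stood at 752 and 645 against 365 and 297, and Cntn2 at 53.7 and 53.9 against 24.9 and 5.49. Rab3a, of synaptic vesicles, stood at 114 and 110 against 42.1 and 30.7. Not all of the 24 were neuronal genes. Dcn, a fibroblast marker, stood at 2.10 and 77.3 CPM against 0.237 and 0, and Igfbp5 at 18.4 and 23.4 against 6.86 and 1.76. Pcna was near equal, at 456 and 392 CPM in the Neurod1 cells against 422 and 358. The median number of replication genes detected was 6 in both kinds of cell in both libraries.

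Relapsed and primary S-phase cells were compared over 7743 genes with a mean of at least 10 CPM. Of these 240 were at least 2-fold higher in the relapsed library (3.1%) and 279 at least 2-fold lower (3.6%), with a median log2 ratio of −0.07 over all genes. Centred on that median, the counts were 284 and 221, so 46.2% of calls were higher as counted and 56.2% when centred. The replication lists held few of these genes. Licensing had 0 of 20 members past 2-fold, chromatin assembly 0 of 19, the fork 1 of 28, nucleotide supply 1 of 18, and checkpoint and repair 1 of 23, with medians of −0.03, −0.05, −0.20, −0.19 and −0.20. With at most 1 member a list, these shares lie near those over all genes. In resting cells the medians of the 5 lists were −0.23, −0.20, −0.50, −0.45 and −0.04 in the same order, against −0.11 over all genes. The S-phase cells of both libraries were chosen by detection of replication genes, and the part of this choice in their medians was not tested. The most abundant members were near equal: Mcm7 stood at 345 and 306 CPM, Pcna at 428 and 358, Dut at 669 and 611, and the histone variant H2afz at 3798 and 3752. Tipin, of the fork protection complex, stood at 248 and 301 and the single-strand binding subunit Rpa3 at 189 and 284 (log2 0.59). Dctpp1, which clears modified nucleotides, stood at 422 and 306.5 and the histone chaperone Nasp at 400.2 and 399.5.

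The exceptions in these lists were all lower in the relapsed library. Chtf8 (chromosome 8) stood at 89.6 CPM (84.1 to 95.2) in primary and 29.3 (26.4 to 32.4) in relapsed S-phase cells, a log2 ratio of −1.61 (−1.79 to −1.44). Its values were 75.9 and 24.9 in resting cells and 90.2 and 29.5 in the G2/M class, so the difference was not limited to S phase. Chek1 stood at 40.4 and 18.7 CPM, a log2 ratio of −1.11 (−1.35 to −0.88). Mthfd1, a folate enzyme of purine and thymidylate synthesis, stood at 43.2 and 20.5, a ratio of −1.08 (−1.30 to −0.86). Chek1 was under 2-fold after thinning to 3000 UMIs, at −0.83, and among cells with at most 1 G2/M gene, at −0.91. Just inside the limit were Atic, of purine synthesis, at 84.7 and 42.4 CPM (log2 −0.999) and Cad, of pyrimidine synthesis, at 16.4 and 8.32 (−0.98).

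E2f1, a factor that drives replication genes, was at least 2-fold higher in the relapsed library. The replication lists had medians near 0, in cells chosen by replication genes. E2f1 (chromosome 2, 154559407–154569892 on mm10, minus strand) stood at 49.4 CPM (45.4 to 53.7) in primary and 153 (146 to 160) in relapsed S-phase cells, a log2 ratio of 1.63 (1.49 to 1.77). A UMI was found in 29.7% and 68.6% of S-phase cells, against 15.4% and 16.1% of microglia and macrophages. Resting cells stood at 21.2 and 44.7 CPM and the G2/M class at 33.4 and 94.0, and the 3 bins of S-phase cells at 45.8, 47.2 and 57.9 against 149, 159 and 151. The other 21 of the 22 E2F, pocket protein and G1/S members were under 2-fold in either direction. Rbl1, the pocket protein p107, came nearest at 11.3 and 21.1 CPM (0.90). The cyclins Ccnd1 at 433 and 447 CPM and Ccnd2 at 1758 and 1764 were near equal, as was Cdk4 at 893 and 821.

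Cdkn2a, the locus of the inhibitors p16 and p19Arf, was the 1 of 6 CDK inhibitors past 2-fold. Cdkn2a (chromosome 4, 89274471–89294653 on mm10, minus strand) stood at 20.0 CPM (17.5 to 22.8) in primary and 80.3 (75.4 to 85.4) in relapsed S-phase cells, a log2 ratio of 2.01 (1.80 to 2.22). A UMI was found in 12.1% and 44.4% of S-phase cells and in 12.1% and 19.4% of microglia and macrophages. The primary share was thus no higher than that of microglia and macrophages. Resting cells, at a median of 4132.5 and 5034 UMIs, had one in 3.99% and 19.6%. The part of free RNA in the primary S-phase share was not tested. Resting cells stood at 10.1 and 47.9 CPM and the G2/M class at 23.9 and 82.9. Gene counts do not tell its transcripts apart. Cdkn1a, p21, stood at 70.7 and 102 CPM, and Cdkn2c, p18, at 91.2 and 84.0, both under 2-fold. Of 13 p53 targets, Phlda3 was higher at 9.725 and 21.1 CPM (log2 1.118) and Btg2, an antiproliferative gene, lower at 73.1 and 32.0 (−1.19). Phlda3 was 0.45 among cells with at most 1 G2/M gene, and Btg2 −0.96 after thinning. The list's median was 0.28.

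**Figure D5:**
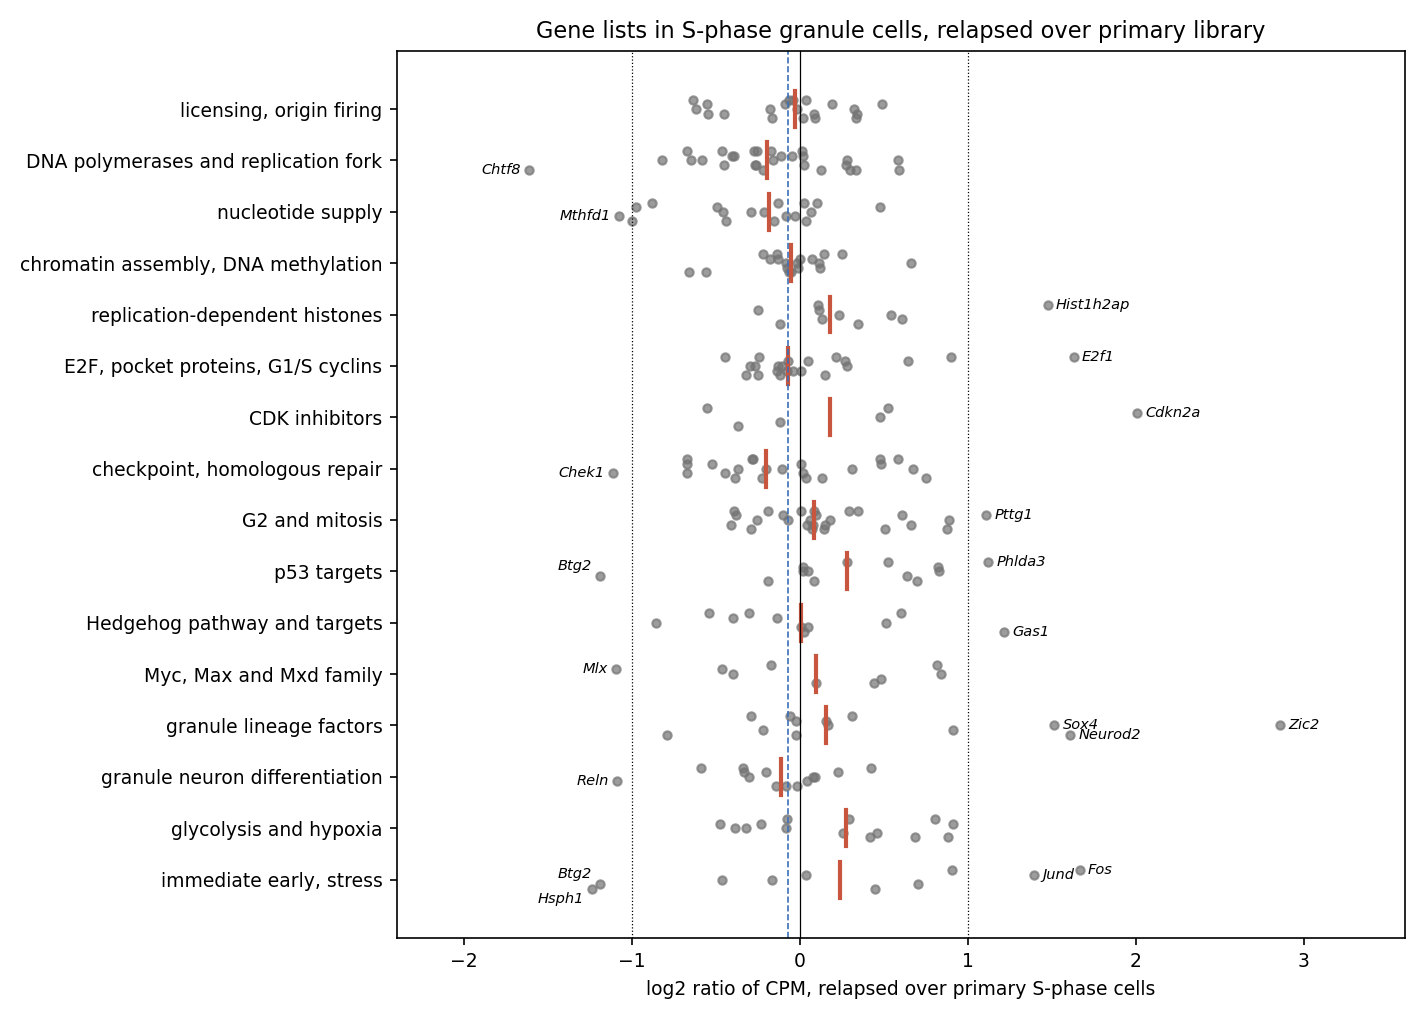
Log2 ratio of relapsed over primary S-phase granule cells (x axis) for each member of 16 gene lists (grey points), with the list median (red bar), the median of all genes at −0.07 (blue dashed line) and 2-fold limits (dotted lines). Points are shifted up and down only to part them; most replication genes lie between the limits, and Cdkn2a (2.01), E2f1 (1.63), Zic2 (2.86) and Chtf8 (−1.61) lie outside.

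Histones and mitotic genes each had 1 member past 2-fold. Hist1h2ap stood at 58.9 CPM (54.5 to 63.5) in primary and 164 (157 to 171) in relapsed S-phase cells, a log2 ratio of 1.47. The other 9 of 10 histone genes were under 2-fold, with a list median of 0.18. Among cells with at most 1 G2/M gene the Hist1h2ap ratio was 0.87, and the copies of this histone cannot be told apart with certainty. Pttg1, securin, which guards sister chromatids, stood at 31.9 and 68.7 CPM (1.11), and in the G2/M class at 28.5 and 232 (3.03). The Pttg1 ratio was 0.70 among cells with at most 1 G2/M gene. The other 25 of 26 members of this list were under 2-fold.

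In the Hedgehog list, Gas1 was the 1 of 11 members past 2-fold. Gas1, a co-receptor that binds Sonic hedgehog, stood at 44.7 CPM (40.9 to 48.8) in primary and 104 (98.3 to 110) in relapsed S-phase cells, a log2 ratio of 1.21 (1.07 to 1.37). It stood at 17.7 and 46.3 in resting cells and 63.2 and 147 in the G2/M class. The target Sfrp1, a Wnt inhibitor, stood at 788 and 1197 CPM, Mycn at 350 and 265, Ptch1 at 158 and 160.5 and Gli1 at 43.0 and 34.9, all under 2-fold. The list median was 0.01. In the Myc family, Mlx, a partner of Mxd proteins, was lower at 30.2 and 14.1 (−1.09) and −0.76 after thinning.

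Lineage factors outside the rule had 3 of 13 members at least 2-fold higher in the relapsed library and 0 lower, against 3.1% and 3.6% over all genes. Sox4, a factor of progenitors and young neurons, stood at 166 CPM (159 to 174) in primary and 474 (462.5 to 486) in relapsed S-phase cells, a log2 ratio of 1.51, with a UMI in 59.9% and 92.2% of cells. Zic2 stood at 2.475 (1.645 to 3.58) and 17.97 (15.7 to 20.5), a ratio of 2.86 (2.29 to 3.48). Neurod2 stood at 5.13 and 15.6 (1.61). In resting cells these 3 stood at 295 and 768, 6.19 and 32.6, and 45.7 and 65.5 CPM in the same order. The close relatives Sox11, at 520 and 512 CPM in S-phase cells, and Zic5, at 71.0 and 69.9, were near equal. Of 14 differentiation genes only Reln, the secreted guidance protein reelin, was past 2-fold, at 73.4 and 34.5 (−1.09), and it was −0.94 among cells with at most 1 G2/M gene.

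Stress and metabolism differed in single genes. Of 10 immediate early and stress genes, Fos (6.81 and 21.6 CPM, log2 1.66) and Jund (177 and 464, 1.39) were higher and Btg2 and the chaperone Hsph1 (72.1 and 30.5, −1.24) lower. Fos had a UMI in 2.79% and 6.65% of S-phase cells. Such genes respond to tissue dissociation, and its part in these values was not tested. No glycolysis gene passed 2-fold among 14, although Gapdh, a glycolytic enzyme, stood at 1757 and 3302 CPM (0.91). The 82 ribosomal protein genes had a median of 0.01 and 0 past 2-fold.

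The genes with the largest ratios were of a different kind from the replication genes. Of the 15 highest in the relapsed library, the pituitary hormones Gh (0 and 3216 CPM, at least 12124-fold higher), Prl (0.442 and 965, 2182-fold) and Pomc (3.27 and 62.0), the sperm protamine Prm1 (0 and 158.5, at least 597-fold), Mgp, Dlk1 and Apod rested on few cells. The 10 S-phase cells with the most UMIs held 97.7% of Gh, 90.1% of Prl, 90.6% of Pomc, 73.9% of Prm1, 92.1% of Mgp, 95.1% of Dlk1 and 96.6% of Apod. Low counts of the hormones were still widespread. Gh had a UMI in 46.8% of relapsed S-phase cells, at a median of 7939 UMIs. It had one in 64.5% of the 31 microglia and macrophages of that library, at 11208 UMIs. The part of free RNA in the Gh share was not tested. Of the 7 pituitary markers, Gh, Tshb, Lhb, Cga and Pitx1 were at 0 in the primary S-phase cells and Lhb in the relapsed ones. Mgp had 1 UMI in the primary library and 466 in the relapsed one, a log2 ratio of 8.69 with a counting interval of 6.21 to 14.00. The Mgp ratio was 1.83 after thinning to 3000 UMIs, 3.47 without the cells that held at least 4 markers of another type and 2.52 among cells with at most 1 G2/M gene. Apod changed sign without the cells that held at least 4 markers of another type, to −0.61, and after thinning, to −0.43, and Pomc went from 4.24 to 0.85 and 0.20.

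The remaining 8 of these 15 were spread over many cells. Eif2s3y and Ddx3y, on the Y chromosome, stood at 0 in the primary and 110 and 60.7 CPM in the relapsed library, at least 413-fold and 229-fold higher. A930019D19Rik, an antisense transcript, stood at 1.77 and 135 CPM (log2 6.26) and had a UMI in 1.23% and 60.6% of cells. Pdlim3, a cytoskeletal PDZ and LIM protein, stood at 1.503 and 103 (6.10) and in 1.04% and 44.8% of cells. Ak1, adenylate kinase, stood at 2.92 and 70.4 (4.59). Abhd12b stood at 0.707 and 26.2 (5.21), and the antisense transcript BC023719 at 0 and 42.7, at least 161-fold higher. Gm5900, a processed pseudogene at 0.707 and 63.3 CPM, can share reads with its parent gene and is uncertain. Pdlim3 stood at 3.67 and 41.0 CPM in resting cells and 1.14 and 146 in the G2/M class.

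The 15 lowest in the relapsed library held Xist (1780 and 19.4 CPM, −6.52) and its antisense partner Tsix, which lie opposite to the Y-linked genes in direction. Xist alone, without Ddx3y or Eif2s3y, was detected in 1287 primary S-phase cells (83.6%) and 4 relapsed ones (0.272%). Ddx3y or Eif2s3y without Xist was detected in 0 primary cells, with an exact binomial upper bound of 0.239%, and in 1056 relapsed cells (71.7%). Both kinds were detected together in 11 relapsed cells. A group of 10 cells held 98.0% of the relapsed Xist UMIs. Microglia and macrophages of the relapsed library differed from its S-phase cells, with Xist in 27 of 31 cells (87.1%), Ddx3y in 3 and Eif2s3y in 5, while those of the primary library had Xist in 220 of 273 (80.6%) and neither Y-linked gene. The S-phase cells of the 2 libraries thus differ in sex-linked RNA as well as in the tumour's label, and these cannot be told apart for any gene compared between the libraries. How many animals each library pooled is not given in the labels.

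Tyrobp, C1qa, C1qb, C1qc and Lyz2, genes of microglia and macrophages, were also among the lowest. Tyrobp stood at 39.9 and 0.471 CPM and C1qa at 43.0 and 0.785, and 10 cells held 71.6% of the primary UMIs of Tyrobp and 80.2% of those of C1qa. At least 4 microglia and macrophage markers were found in 17 primary and 0 relapsed S-phase cells. Without cells that held at least 4 markers of another type, C1qa was at −3.22 instead of −5.77 and Tyrobp at −4.85 instead of −6.40. The others were Mndal, an interferon-inducible gene (64.5 and 0 CPM, at least 274-fold lower), Hoxb2 (36.4 and 0, at least 155-fold lower) with its antisense neighbour Hoxb3os, Ren1, renin (275 and 2.98, −6.52), Mgl2 (58.4 and 1.099, −5.73), Gsto1 (27.7 and 1.26, −4.46), Gm26870, and Gm10036. Ren1 had a UMI in 20.3% of primary S-phase cells and Mgl2 in 32.5%. Gm10036 (1180 and 53.2) is a processed pseudogene and uncertain, and the strand used in counting is not given in the sources used here, so Hoxb2 and Hoxb3os cannot be told apart where they overlap.

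Markers of other cell types were also looked for in the S-phase cells. At least 4 markers of any of 14 other types were found in 123 primary (7.99%) and 137 relapsed cells (9.30%), mostly of the astrocyte list (101 and 119), whose summed level was 400 and 435 CPM in S-phase and 553 and 826 in resting cells. Oligodendrocyte precursor markers summed to 114 and 221 CPM in S-phase cells. Left without these cells, E2f1 was at 1.68, Cdkn2a at 2.08, Sox4 at 1.51 and Hist1h2ap at 1.56, as large as before.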

How the data were processed

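RNA of 2 single-cell libraries was measured; the 6 bulk astrocyte libraries of the series were not used here. The deposited matrices hold UMI counts, whole numbers for 27998 gene entries, read here as raw counts. Cell Ranger, STAR, Seurat and the build mm10 are listed, per the submitters' processing notes, without role, order or version, and how barcodes were chosen as cells is not given in the sources used here.

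Cells were chosen as described above, in python 3.11.15 with numpy 2.4.6 and scipy 1.17.1. The members, gene lists, markers and thresholds were chosen with earlier results of these data known. UMIs were summed per library and class and divided by the class total to give CPM. Genes with a mean of at least 10 CPM over the 2 sums compared were kept, and a call is a ratio of at least 2-fold, with no test, since each group has 1 library. A sum of 0 was set to a floor of 3 UMIs for a bound. Named genes are the 15 highest and 15 lowest by ratio between libraries, the 15 highest by the smaller S-phase to resting ratio, the genes of the rule, and, of each list, members past 2-fold and the 3 of highest mean CPM, of which those bearing on a result are printed; genes near a limit, relatives and a few other list members were chosen after their values were seen.

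Doublets were kept, since Scrublet (scanpy 1.11.5) marked 0 cells in either library at its own threshold; removing the top 6% of scores (546 and 470 cells, of which 99 and 89 were S-phase cells) was an alternative. Other alternatives were looser and stricter limits of the rule, thinning, gene filters, centring and, added after seeing the data, leaving out cells with markers of another type and cells with more than 1 G2/M gene. The fold calculation was tested on simulated data. Coordinates are from GENCODE M21 on mm10, matched for 8114 of 8122 kept genes, and promoters from RefSeq on GRCm38.p6. Figures used matplotlib 3.10.9.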

Additional observations from a re-analysis of the deposited data

Results flagged for a closer look

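Pdlim3 was the only gene of those kept that was past 2-fold in opposite directions in S-phase against resting cells of the 2 libraries. Its log2 ratio was −1.29 in the primary library, where it rested on 17 UMIs in S-phase cells, and 1.33 in the relapsed library. The difference was not tested.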

How the results depend on the processing

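The S-phase share of granule lineage cells depended on the limits and on depth. From 17.6% (primary) and 19.1% (relapsed) it went to 22.9% and 25.2% with at least 4 replication genes, 12.9% and 14.0% with at least 6, and 13.6% and 14.7% with at most 3 G2/M genes. With at most 5% mitochondrial UMIs the primary share was 19.1%. Thinned to 2000, 3000 and 5000 UMIs it was 3.17%, 9.19% and 20.0% in primary and 2.28%, 6.87% and 16.6% in relapsed cells, so the difference of 1.46 percentage points turned to −0.89, −2.32 and −3.42. The gene filter set the counts past 2-fold: with a mean of at least 1 CPM, 785 genes were higher and 876 lower in the relapsed library, and 556 higher and 1146 lower in S-phase than in resting cells, and with at least 50 CPM these counts were 68, 62, 112 and 102, since fewer genes enter. Thinning to 2000 UMIs gave 662 higher and 818 lower genes between the libraries, against 240 and 279. Of 48 named genes past 2-fold between the libraries, 9 were under 2-fold in some alternative (Apod, Btg2, Chek1, Hist1h2ap, Mlx, Phlda3, Pomc, Pttg1 and Reln). Apod alone changed sign, to −0.43 after thinning to 3000 UMIs, −0.61 without cells with markers of another type and −1.37 among cells with at most 1 G2/M gene. None of the 225 alternative values of the 15 genes named for S-phase over resting fell under 2-fold. No paired analysis was possible because each group has 1 library. Depth limits both shares of cells and the calls of genes near 2-fold.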
